A study of Homo sapiens with 4 samples.

Results

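Cytosolic ribosomal protein genes encode the protein subunits of the ribosomes that translate nuclear mRNAs, and 53 of them were measured here among 33458 genes. They were taken as the rows of the array table with exactly 1 gene symbol, where that symbol has the form of a large subunit (RPL), small subunit (RPS) or acidic stalk (RPLP) protein gene. Pseudogenes, the RPS6K kinases and RPS27L were left out, and so was RPS10L, which is listed by RefSeq as an older name of a pseudogene. The pattern found 84 rows of 55 symbols, and 82 rows of 53 genes remained, 32 of the large subunit and 21 of the small subunit. Where a gene had several rows, the brightest by its mean of all 4 arrays stood for it. The choice used names and mean signal only, not the difference between the groups.

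SAS, a human line derived from a squamous cell carcinoma of the tongue, was profiled on 4 Clariom D arrays, 2 of cells with C6orf141 overexpression and 2 of control cells. The treatment protocol in the labels, which is the same for all 4 samples, describes stable SAS cells made with full-length C6orf141 in the pLVX-IRES-Neo vector and G418 selection, whereas the array methods do not say whether the arrayed cells were stable or transiently transfected. The labels call the control arrays scrambled controls, the series title speaks of a mimic, and the array methods speak only of control cells. Whether the controls carried an empty vector or were grown with G418, whether stable cells were a pool or a clone, and whether replicate arrays stem from different cultures is not stated in the sources used here. All p-values therefore rest on the spread of these arrays alone, and that spread can be a technical one.

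The ribosome consists of a small subunit, which reads the mRNA, and a large subunit, which joins amino acids and releases the growing chain through an exit tunnel. Cells make nearly every ribosomal protein in equal amounts, and most of the mRNAs start with a run of pyrimidines, the 5′ terminal oligopyrimidine or TOP motif, through which LARP1 and the mTOR pathway control their translation together. Because ribosomal protein mRNAs are among the most abundant of dividing cells, and because some free ribosomal proteins can bind the ubiquitin ligase MDM2, their balance is often followed in studies of tumour cell growth. The question put to the arrays was whether these mRNAs differed in cells with C6orf141 overexpression, in which the study examined proliferation and the cell cycle.

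The start regions of some of the genes described further on are shown, since the TOP sequence is what these mRNAs have in common beyond their products. Promoter entries of RefSeq for GRCh38.p14, which reach from 250 bases before to 50 bases after the annotated start, were found for 46 of the 53 genes. RPL3L, RPL5, RPL7, RPL30, RPL37, RPL39L and RPS15A had no entry. Each line gives 30 bases, 5′ to 3′ on the strand of the gene, of which 10 lie before the annotated start, and capitals mark the stretch of pyrimidines read from the C nearest that start, at most 10 bases from it, that at least 4 more pyrimidines follow. Pyrimidines before that C and other such stretches stay in lower case.
RPL36A (chrX:101391001-101391030, plus strand): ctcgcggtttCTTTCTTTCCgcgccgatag
RPL26 (chr17:8383174-8383203, minus strand): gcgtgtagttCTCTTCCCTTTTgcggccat
RPS27 (chr1:153990752-153990781, plus strand): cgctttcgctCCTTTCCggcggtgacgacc
RPL31 (chr2:101002279-101002308, plus strand): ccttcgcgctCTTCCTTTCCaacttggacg
RPL34 (chr4:108620566-108620595, plus strand): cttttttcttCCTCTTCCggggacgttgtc
RPS6 (chr9:19380217-19380246, minus strand): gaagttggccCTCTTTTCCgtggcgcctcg
RPL24 (chr3:101686699-101686728, minus strand): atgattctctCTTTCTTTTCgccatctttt
RPLP1 (chr15:69452808-69452837, plus strand): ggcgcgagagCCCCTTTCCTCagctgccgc
RPL7A (chr9:133348208-133348237, plus strand): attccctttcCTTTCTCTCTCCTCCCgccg
RPS26 (chr12:56041908-56041937, plus strand): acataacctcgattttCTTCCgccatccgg
RPL27 (chr17:42998409-42998438, plus strand): gtgaaaggttagcggaagtgtccttctttc
RPS4X (chrX:72277229-72277258, minus strand): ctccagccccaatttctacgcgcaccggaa
In RPL36A, RPL26, RPS27, RPL31, RPL34, RPS6, RPL24, RPLP1 and RPL7A the annotated start base is itself such a C, in some of them with further pyrimidines before it. In RPS26 the C lies 6 bases after the start, and RPL27 and RPS4X have no such C within 10 bases of it. In RPL27 a stretch of this kind begins just past that bound.

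A C of this kind within 10 bases of the annotated start was present in 41 of the 46 genes (89.1%), against 38.4% of the 27305 genes with a promoter entry. The start base itself was such a C in 33 of the 46 (71.7%), against 5.14% of all 27305, and counted from it onward these stretches were 5 to 16 bases long with a median of 8. RPL6, RPL10L, RPL27, RPS4X and RPS29 had no such C within 10 bases of the start. These are letters in a window and do not show which start the SAS cells used. The median log2 difference between overexpressing and control cells was -0.01 over the 41 genes with such a C. Over the 5 without it the median was 0.10, and the ranges of -0.24 to 0.18 and -0.06 to 0.32 overlap. The 0.10 is the value of RPL27 itself, which has such a stretch just past the bound of 10 bases. As 2 of the 5 (RPL10L and RPS29) were also below the background level, this split cannot compare genes with and without a TOP start.

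The letters TCTCGCGA, a palindrome-like element found before ribosomal protein genes, stood on either strand in the entries of 9 of the 46 genes (19.6%), against 1.37% of the 27305. These were RPL4, RPL7A, RPL10A, RPL12, RPL26, RPS6, RPS15, RPS19 and RPS28, and in 7 of them a copy lay 45 to 60 bases before the start. Windows of 30 bases are shown for 4 of the 9, with the element in capitals.
RPL26 (chr17:8383224-8383253, minus strand): agagacataggTCTCGCGAgatctttggta
RPL7A (chr9:133348160-133348189, plus strand): ccggtatcaacTCTCGCGAtctccgaggcc
RPS6 (chr9:19380270-19380299, minus strand): acttctgctcaTCTCGCGAgaactgaaagc
RPS19 (chr19:41860195-41860224, plus strand): gctttcggaacTCTCGCGAgaccctacgcc
In RPL26, RPS6 and RPS19 a second copy on the other strand overlaps it. The median log2 difference was -0.02 over the 9 genes with the element and 0.01 over the 37 without it. Of the other letters searched on both strands, the ETS motif CCGGAAG was found in 15 of the 46 genes (32.6%, against 12.2% of the 27305), the GC box GGGCGG in 26 (56.5%, against 48.3%), the YY1 motif AAGATGGC in 4 (8.7%, against 3.52%) and the TATA letters TATAAA in 3 (6.52%, against 14%).

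The table holds log2 signals, so a difference of 1 is a doubling, and it carries no detection calls. A background level of 5.81 was used, below which the mean signals of 95% of the 400 olfactory receptor genes fell, a family mostly silent in epithelium. The array's 612 negative control rows had 95th percentiles of 7.64 to 7.72. Of the 53 ribosomal protein genes, 50 had a mean signal above the background level and 46 had a mean above 13. RPL4, RPL10L and RPS29 were at or below it. Of the 77 standard ribosomal protein symbols, 50 are among the 53, beside the tissue-restricted paralogs RPL3L, RPL10L and RPL39L. A further 18, such as RPL3, RPL13A and RPS3, stood only on rows with several symbols, and 9, such as RPLP0, RPSA and RPL15, were not analysed here.

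The rows of 8 genes have a limit that has to be kept in mind for their values. RPL4, RPL10L and RPS29 were dim. RPL21 and RPS28 were represented by rows whose identifiers name another chromosome (10 and 11) than that of the gene (13 and 19), which happened in few rows of the array, since the 2 chromosomes were equal in 99.9% of 24265 rows. RPL5 and RPS3A had rows without a gene number beside a row with several symbols, and the identifier of RPL7A names no chromosome. The other 45 genes, 27 of the large and 18 of the small subunit, are called well represented below. Processed pseudogenes of ribosomal protein genes are near-identical copies, and probe sequences, which could tell them apart from the genes, were not used here, so every level may include such copies. Bulk arrays cannot tell fewer cells from less RNA per cell.

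C6orf141 itself had 11.36 and 12.04 in overexpressing cells, against 8.57 and 7.92 in control cells (log2 difference 3.46, SE 0.32, limma adjusted p = 0.214), so that the arrays matched their labels. The array medians over all rows were 4.74 and 4.73 in overexpressing cells and 4.71 and 4.77 in control cells. Epithelial CDH1, EPCAM, KRT5 and KRT14 were above the background level, 3 other epithelial markers were not analysed here, and of 6 markers of other cell types VIM, CD68, COL1A1 and CD3E were above it, CD3E with 5.41 to 6.16 over the 4 arrays, while PECAM1 and PTPRC were not. No gene passed an adjusted p of 0.05 in limma with Benjamini-Hochberg adjustment, while 1 gene did when a block for the replicate number was added and 1 when the trend and robust options of limma were on. The unadjusted threshold was passed by 348 higher and 358 lower genes.

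The ribosomal protein mRNAs did not differ detectably between the groups in limma. None of the 53 genes passed an unadjusted p of 0.05 in limma in either direction, against 1.04% of all genes that passed as higher and 1.07% as lower in overexpressing cells, 2.11% in all. Among genes above the background level, 0.898% passed in either direction. The smallest unadjusted p was 0.17, for RPL3L, and every adjusted p was 1.00. The median log2 difference over the 53 genes was -0.0028, against -0.00036 over all genes, with 26 values above 0. It was 0.01 over the 32 large subunit genes and -0.01 over the 21 small subunit genes. The median over the 53 turned on which control array was used, with -0.12 without control replicate 1 and 0.10 without control replicate 2.

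Single genes ranged from -0.24 (RPL21) to 0.36 (RPL3L), and those well represented from -0.18 (RPL26) to 0.36. The upper end is RPL3L in both, whose signal lay below the 95th percentiles of the negative control rows. The next largest value of a well represented gene was 0.12 (RPS9). Above the background level, 41 of 50 ribosomal protein genes (82%) lay within 0.1 of 0, and 48 (96%) within 0.2. Of the 16096 other genes above that level, 40% lay within 0.1 and 68.8% within 0.2. Signal height moves with this: of the 2590 other genes with a mean above 13, 53.5% lay within 0.1, against 82.6% of the 46 ribosomal protein genes in that range, and its part in the result was not tested. The narrow spread was not particular to ribosomal protein genes. The median size of the difference was 0.046 over the 50 genes and 0.044 over 12 translation factors and other TOP mRNAs. Over the 16096 other genes it was 0.13. The 95% intervals of the differences had half-widths of 0.51 to 0.79 with a median of 0.53, which is 1.44-fold. A difference smaller than its half-width could not pass the unadjusted threshold in this fit. Because limma draws the spread of each gene towards 1 value shared by all rows (SD 0.25), these widths depend on that setting too. Student's t-test, which uses each gene's own spread, called some smaller differences, as given further on.

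**Figure D1:**
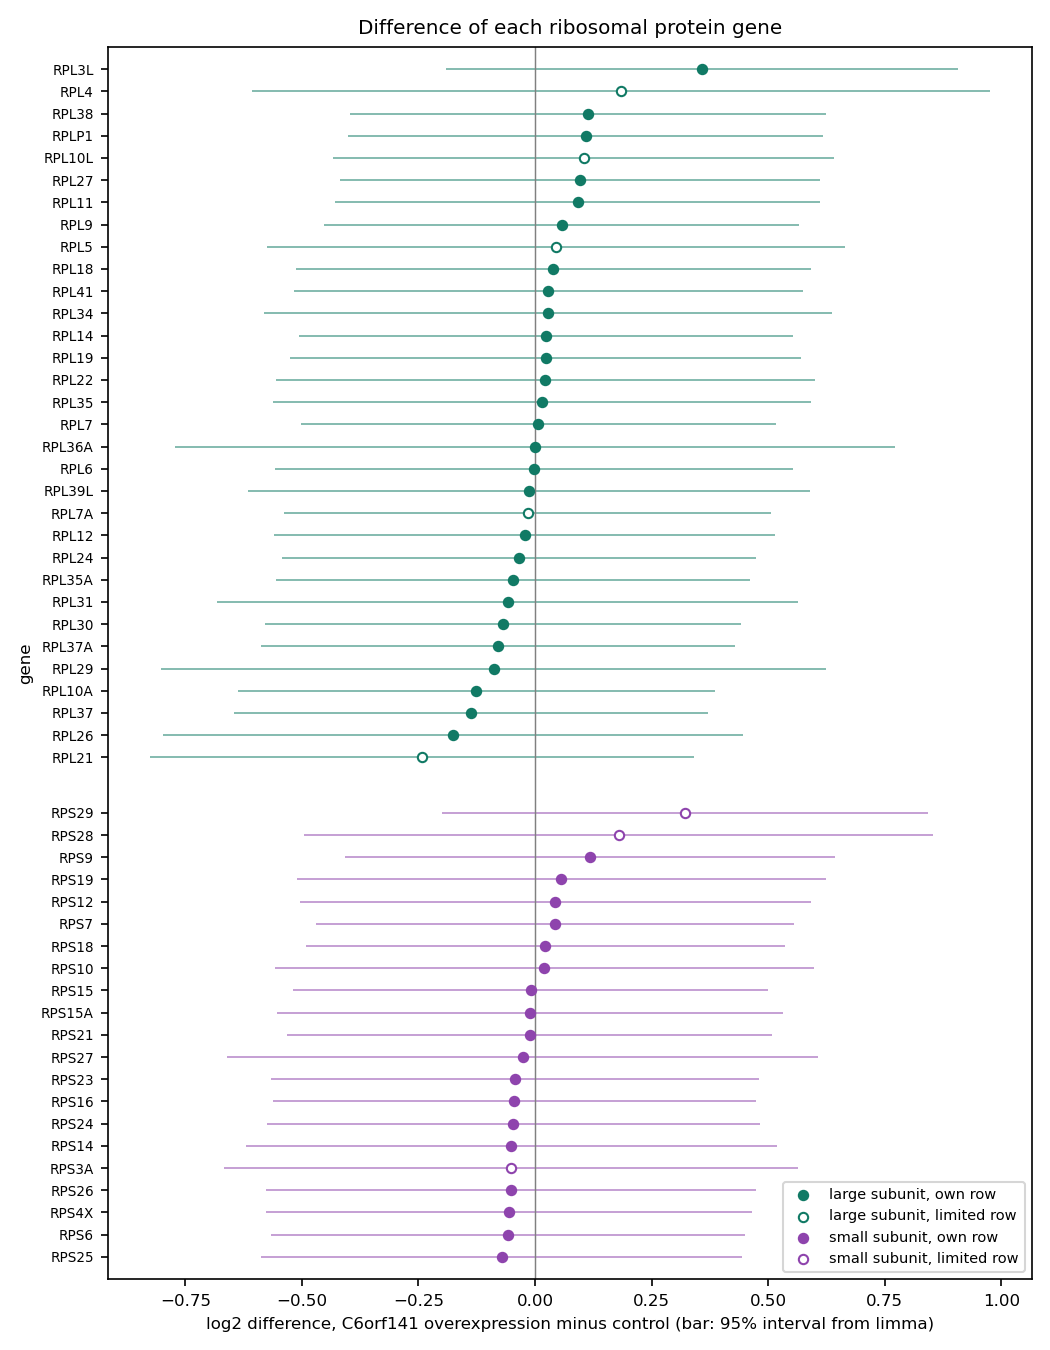
Log2 difference of each of the 53 genes, C6orf141 overexpression minus control, with the 95% interval from limma (x axis), ordered within the large subunit (green) and the small subunit (purple). Open circles are the 8 genes whose rows have a limit, and every interval includes 0.

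**Figure D2:**
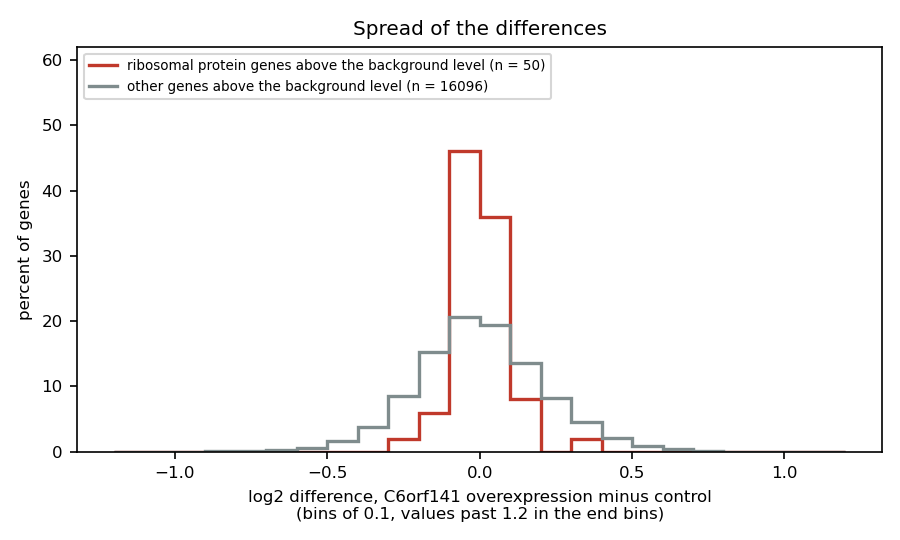
Percent of genes (y axis) in bins of 0.1 of the log2 difference, C6orf141 overexpression minus control (x axis), for 50 ribosomal protein genes (red) and 16096 other genes (grey), all above the background level. Of the ribosomal protein genes 82% fell within 0.1 of 0, against 40% of the other genes. Translation factors and other TOP mRNAs, not drawn apart, had a median size of difference of 0.044, against 0.046 for the ribosomal protein genes.

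In the large subunit, the P stalk recruits the elongation factors. RPLP1, an acidic protein of that stalk, had 16.62 and 16.57 in overexpressing cells, against 16.47 and 16.51 in control cells. Both overexpressing arrays lay above both control arrays, but the log2 difference of 0.11 (SE 0.22, limma unadjusted p = 0.636) was within the error. RPL12, at the base of the stalk, had 17.27 and 17.09 in overexpressing cells and 17.09 and 17.32 in control cells, and its groups overlapped almost wholly (log2 difference -0.02). RPLP2 stood only on a row with several symbols, and RPLP0 was not analysed here.

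RPL5 and RPL11 travel with 5S rRNA as a particle that can bind MDM2 when ribosome assembly is disturbed. RPL11 had 16.55 and 16.58 in overexpressing cells, against 16.38 and 16.57 in control cells, where control array 2 lay between the overexpressing arrays. Its log2 difference was 0.09 (SE 0.22). RPL5, on a row with a limit, had 9.57 and 9.62 in overexpressing cells, both between the 9.85 and 9.25 of control cells (log2 difference 0.05).

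Among proteins that line the exit tunnel or its rim, RPL19, RPL22, RPL26, RPL31 and RPL35 were above the background level. RPL26 had 17.39 and 17.35 in overexpressing cells, against 17.24 and 17.85 in control cells. The overexpressing arrays lay between the control arrays, and its log2 difference of -0.18 (SE 0.27) was the most negative of the well represented genes. RPL31 had 15.75 and 15.64 in overexpressing cells, against 15.45 and 16.06 in control cells, and RPL22 had 17.44 and 17.36, against 17.15 and 17.61 in control cells. RPL19 and RPL35 had the same order, with log2 differences of 0.02 and 0.01. RPL4, whose extension reaches into the tunnel, had only a dim row of 3.29 and 3.59 in overexpressing cells, against 2.76 and 3.75 in control cells. Without control replicate 2 its log2 difference was 0.68 (limma unadjusted p = 0.0496), the only case in which leaving out 1 array gave a call among the 53.

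In 13 of the 53 genes the 2 overexpressing arrays lay both above or both below the 2 control arrays (24.5%), against 29.4% of all genes and 27.6% of the genes above background. With 2 arrays against 2, an exact two-sided permutation test cannot go below p = 0.333. The 6 with higher signal in overexpressing cells were RPL3L, RPL9, RPL27, RPL38, RPLP1 and RPS29, and the 7 with lower signal were RPL10A, RPL24, RPL30, RPL35A, RPL37, RPL37A and RPS6. RPL38, whose loss in mice alters the translation of Hox mRNAs, had 18.03 and 18.04 in overexpressing cells, against 17.88 and 17.96 in control cells (log2 difference 0.11). RPL37, a zinc-binding protein of the large subunit, had 17.44 and 17.41 in overexpressing cells, against 17.55 and 17.58 in control cells (log2 difference -0.14, SE 0.22). RPL10A, part of the L1 stalk beside the exit site of tRNA, had 14.88 and 14.84 in overexpressing cells, against 14.95 and 15.02 in control cells (log2 difference -0.13, SE 0.22).

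RPL37A, a further zinc-binding protein, had 16.72 and 16.73 in overexpressing cells, against 16.78 and 16.83 in control cells (log2 difference -0.08). RPL30, which is related to proteins that bind kink-turns of RNA, had 17.00 and 17.04 in overexpressing cells, against 17.06 and 17.12 in control cells (log2 difference -0.07). RPL24, which forms a bridge to the small subunit, had 16.71 and 16.70 in overexpressing cells, against 16.73 and 16.76 in control cells (log2 difference -0.03). The overexpressing arrays were the lower pair in each, by less than the SE of 0.22. RPL27 had 14.91 and 14.94 in overexpressing cells, against 14.76 and 14.90 in control cells, and RPL9 had 15.98 and 15.92, against 15.90 and 15.88 in control cells. Their log2 differences were 0.10 and 0.06. RPS29, on a dim row, had 5.08 and 4.89 in overexpressing cells, against 4.67 and 4.65 in control cells (log2 difference 0.32, SE 0.23, limma unadjusted p = 0.191). RPL21, whose row names another chromosome, had 15.97 and 15.85 in overexpressing cells, against 15.92 and 16.39 in control cells, and its log2 difference of -0.24 (SE 0.25) was the most negative of all 53.

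Some of these gaps were narrow but even. RPL35A, a gene mutated in Diamond-Blackfan anaemia, had 16.11 and 16.12 in overexpressing cells, against 16.16 and 16.16 in control cells. RPS6, the small subunit protein phosphorylated by S6 kinases, had 16.03 and 16.03 in overexpressing cells, against 16.09 and 16.09 in control cells. A Student's t-test taken as the methods' t-test, which uses each gene's own spread, gave unadjusted p-values of 0.0125 for RPL35A (log2 difference -0.05), 0.0245 for RPL37 (-0.14) and 0.00546 for RPS6 (-0.06). The limma p-values of these genes were 0.834, 0.549 and 0.796. These were the 3 ribosomal protein genes lower by that test, and 0 were higher. Of all genes 2.12% passed that test as lower and 1.95% as higher, and none of the 33458 passed it after Benjamini-Hochberg adjustment.

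In the small subunit the log2 differences of the well represented genes lay between -0.07 (RPS25) and 0.12 (RPS9). RPS23, a protein of the decoding centre, had 18.02 and 17.96 in overexpressing cells, against 17.93 and 18.14 in control cells (log2 difference -0.04), and RPS15, also near that centre, had 16.48 and 16.51, against 16.48 and 16.52 in control cells (-0.01). RPS10, which is ubiquitinated when ribosomes collide, had 17.21 and 17.15 in overexpressing cells, between the 16.93 and 17.39 of control cells (log2 difference 0.02). RPS9 had 14.89 and 14.78 in overexpressing cells, against 14.62 and 14.82 in control cells (log2 difference 0.12, SE 0.23). RPS25, which many viral internal ribosome entry sites need, had 16.68 and 16.66 in overexpressing cells, against 16.67 and 16.82 in control cells.

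RPS26, at the exit of the mRNA channel, is of practical weight, because the PCR methods name GAPDH as the reference gene while their formula subtracts the threshold cycle of S26. RPS26 had 16.50 and 16.44 in overexpressing cells, against 16.41 and 16.62 in control cells. The overexpressing arrays lay between the control arrays, with a log2 difference of -0.05 (95% interval -0.58 to 0.47). Of 9 genes known from Diamond-Blackfan anaemia 8 were measured (RPL5, RPL11, RPL35A, RPS7, RPS10, RPS19, RPS24 and RPS26), with a median difference of 0.03, and 0 passed the test in either direction. RPS19, the gene most often mutated in that disease, had 16.09 and 15.98 in overexpressing cells, between the 15.77 and 16.19 of control cells. RPS24 had 17.92 and 17.88 in overexpressing cells, between the 17.82 and 18.07 of control cells. RPS7, which like RPL5 and RPL11 can bind MDM2, had 16.81 and 16.91 in overexpressing cells, against 16.79 and 16.85 in control cells. In all 3 the groups overlapped, with log2 differences of 0.06, -0.05 and 0.04.

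The remaining small subunit genes repeated this. RPS12 had 16.39 and 16.34 in overexpressing cells, between the 16.15 and 16.49 of control cells. RPS14, whose loss on chromosome 5 is known from the 5q- syndrome, had 15.03 and 14.95 in overexpressing cells, between the 14.83 and 15.26 of control cells. RPS15A, RPS16, RPS18 and RPS21 likewise had both overexpressing arrays between the control arrays, and their log2 differences lay between -0.04 (RPS16) and 0.02 (RPS18). RPS3A, on a row with a limit, had 8.47 and 8.57 in overexpressing cells, between the 8.87 and 8.28 of control cells.

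The paralogs with restricted expression were measured beside the common genes. RPL3L, found in heart and skeletal muscle, had 6.60 and 6.77 in overexpressing cells, against 6.48 and 6.17 in control cells. Its groups did not overlap, and its log2 difference of 0.36 (SE 0.24, limma unadjusted p = 0.17) was the largest of the 53, but on all 4 arrays its signal lay below the 95th percentile of the negative control rows. RPL39L, known from testis and many tumours, had 9.28 and 9.79 in overexpressing cells, around the 9.43 and 9.66 of control cells (log2 difference -0.01). It was the only ribosomal protein gene whose 2 overexpressing arrays differed by more than 0.4. RPL10L, a testis gene, lay below the background level with 5.04 and 4.96 in overexpressing cells and 5.04 and 4.76 in control cells.

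The larger differences were those between the 2 control arrays. In 43 of the 53 genes (81.1%) control array 2 was above control array 1, with a median gap of 0.20, whereas among other genes above the background level this held for 43.0%, with a median gap of -0.07. The 2 overexpressing arrays were closer, with a median gap of -0.04 (array 2 minus array 1) and a median size of 0.06, against 0.23 for the control arrays. The control gap was the larger in 46 of the 53 genes, as in 66.3% of the genes above the background level. These are counts over genes of the same 4 arrays, and a replicate number does not order arrays.

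RPL36A had the widest gap of the well represented genes, with 15.45 and 16.43 in control cells, while both overexpressing arrays, with 16.03 and 15.85, lay inside it. RPL29, also known as a heparin-binding protein, had 13.98 and 13.83 in overexpressing cells, against 13.58 and 14.42 in control cells. RPS27, a zinc-finger protein of the small subunit, had 16.95 and 16.71 in overexpressing cells, against 16.55 and 17.15 in control cells. RPL34 had 17.20 and 17.16 in overexpressing cells, against 16.87 and 17.44 in control cells. In these genes the mean difference between the groups was small (0.0004 for RPL36A, -0.09 for RPL29, -0.03 for RPS27 and 0.03 for RPL34) with the control arrays on either side.

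Both overexpressing arrays lay within the range of the control arrays in 31 of the 53 genes (58.5%), against 29.4% of genes above the background level. Control array 2 was the highest and control array 1 the lowest of the 4 in 26 of the 53, against 11.5% of the genes above the background level. The reverse order held for 5 of the 53, against 17.9%. Among the 46 ribosomal protein genes with a mean above 13, control array 2 was the higher in 89.1%, against 42.9% of the 2590 other genes of that range. RNA quality, labelling and growth of the 2 control samples are not recorded per array in the sources used here, and their part in this gap was not tested.

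**Figure D3:**
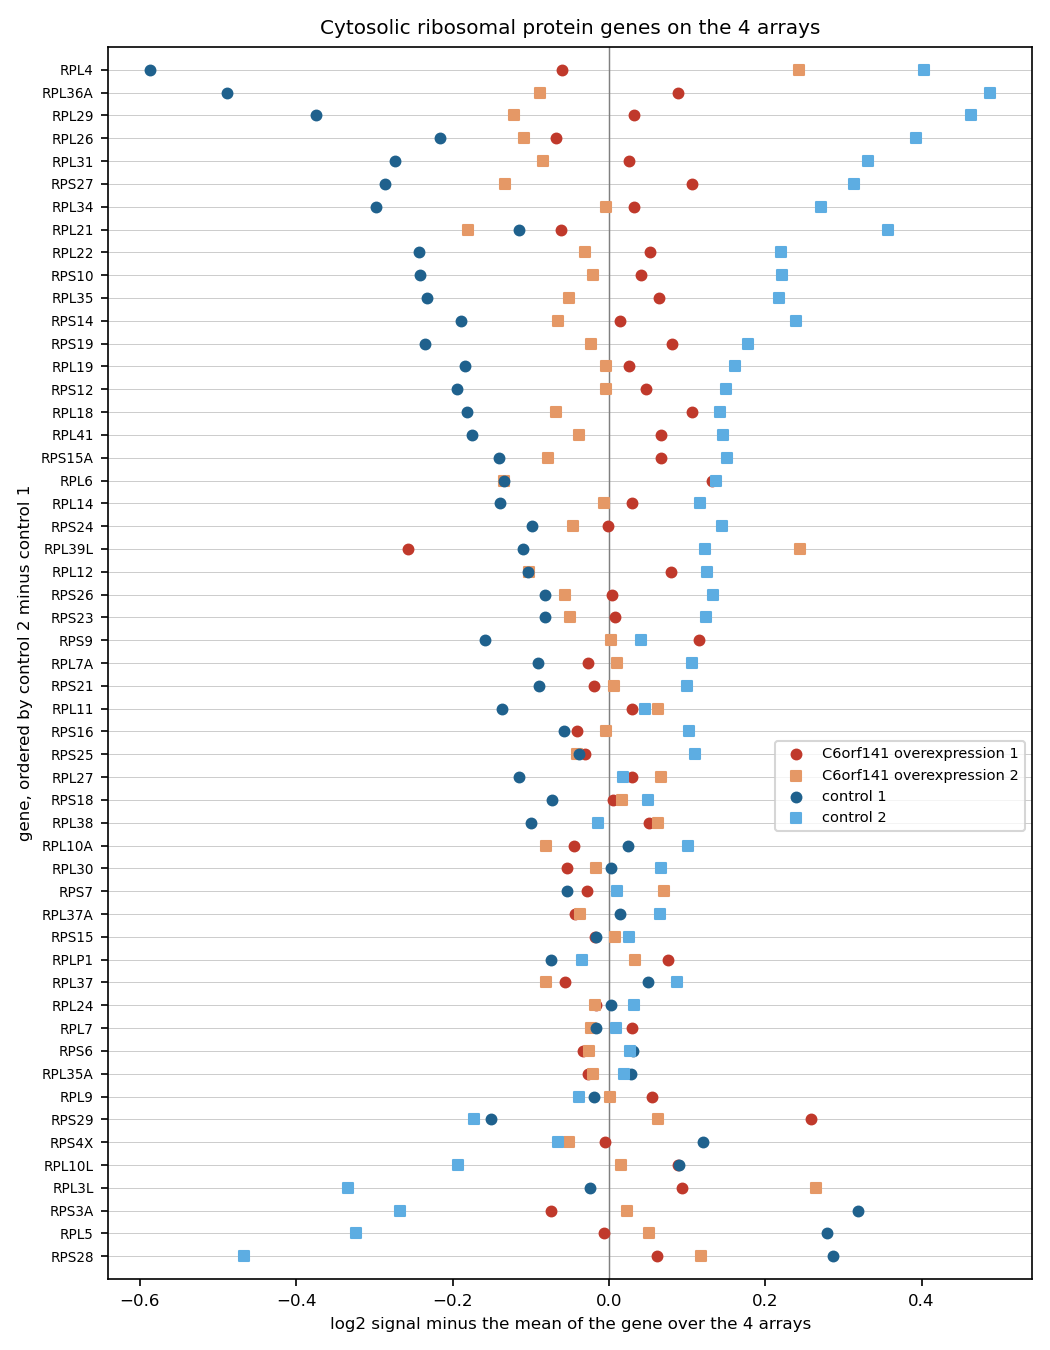
Log2 signal of the 53 genes on the 4 arrays, each minus the mean of the gene over the 4 arrays (x axis), with genes ordered by control 2 minus control 1 (y axis). The overexpression arrays (red and orange) lie between control 1 (dark blue) and control 2 (light blue) in 31 genes, and control 2 is the higher control array in 43 genes.

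A few genes went the other way. RPS28 had 15.51 and 15.57 in overexpressing cells, against 15.74 and 14.98 in control cells, and its second row, which names the chromosome of the gene, repeated this with 14.90 and 14.92, against 15.17 and 14.51 in control cells. RPL5 and RPS3A, both on rows with a limit, had control gaps of -0.60 and -0.59. RPS4X, the X-linked S4 gene and 1 of the 5 without such a stretch at its start, had 17.64 and 17.59 in overexpressing cells, against 17.76 and 17.58 in control cells. In 14 genes the control arrays lay within 0.1 of each other, among them RPL7, RPL9, RPL24, RPL35A, RPLP1, RPS6, RPS7 and RPS15. In 16 genes the gap exceeded 0.4.

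Genes with several rows allow each gap to be read more than once, although such rows may share transcripts. The 4 rows of RPL41, the smallest ribosomal protein, had control gaps of 0.32, 0.39, 0.29 and 0.40 and log2 differences between the groups of 0.03, 0.01, 0.05 and 0.01, but only the first row names the chromosome of the gene. The 2 rows of RPL36A had control gaps of 0.98 and 0.87, but the second names chromosome 11 and the gene lies on X. RPS26 had 3 rows with gaps of 0.21, 0.08 and 0.77 and log2 differences of -0.05, -0.06 and -0.28. Only the first of these names chromosome 12, that of the gene, and the others name chromosomes 4 and 13. RPL7A and RPS25 had 9 and 7 rows whose gaps had both signs, from -0.70 to 0.37 in RPL7A and from -0.49 to 0.15 in RPS25. The gaps of 0.37, -0.70 and -0.49 came from rows of low mean signal (5.18, 7.63 and 6.74). The 2 brightest rows had gaps of 0.20 and 0.31 in RPL7A and of 0.15 and -0.06 in RPS25.

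**Figure D4:**
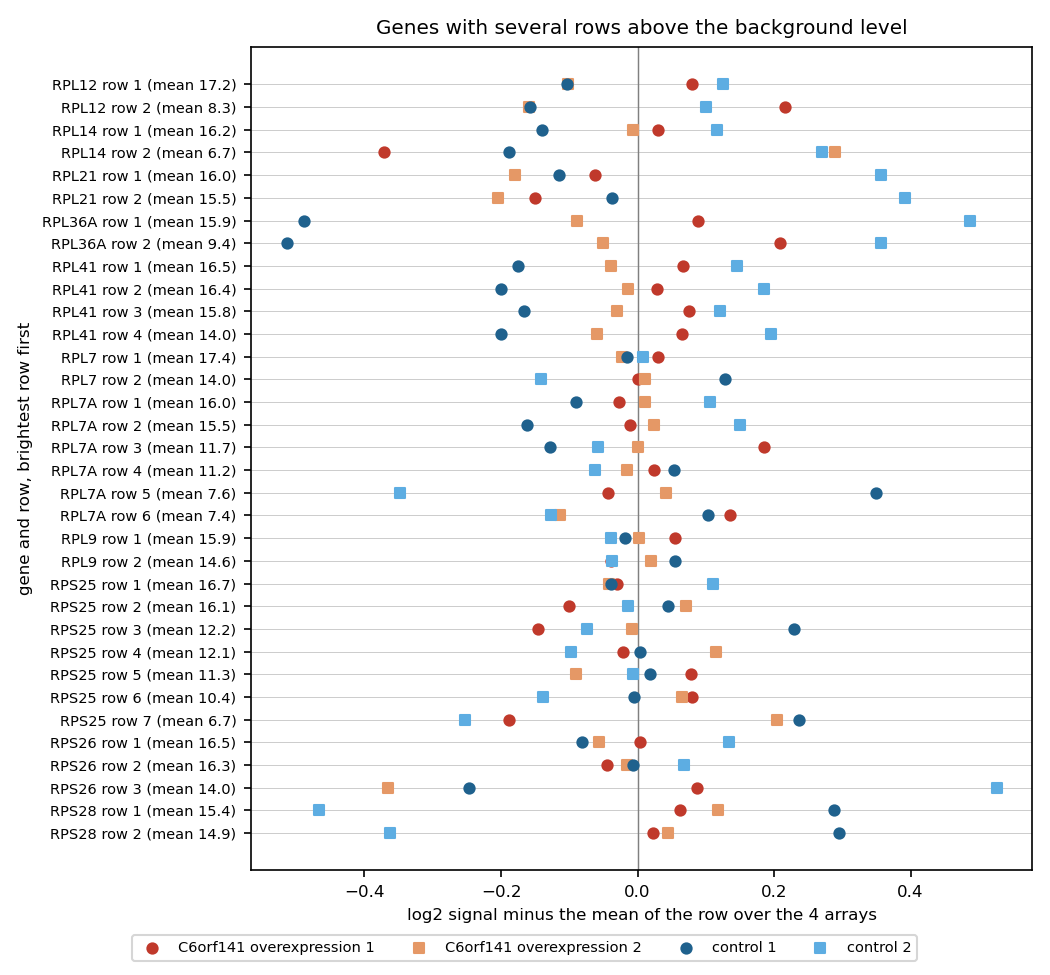
Log2 signal minus the mean of the row over the 4 arrays (x axis) for genes with at least 2 rows above the background level, brightest row first (y axis, with the mean log2 signal of each row). The rows of RPL41 and RPL36A repeat the order of the arrays, whereas those of RPL7A and RPS25 do not.

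Rows with several symbols, of which 1 is a ribosomal protein gene, cannot be credited to a gene but cover part of the 18 genes not counted above. There were 24 of them, 23 above the background level, and 0 passed the unadjusted threshold in limma. Their median log2 difference was 0.0015, with a range of -0.28 to 0.29. Control array 2 was above control array 1 in 20 of the 24, with a median gap of 0.18.

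Genes that act beside the cytosolic ribosomal proteins were read from lists of the pathway. FAU, which encodes RPS30 fused to a ubiquitin-like protein, had 13.80 and 13.86 in overexpressing cells, against 13.25 and 13.29 in control cells. It was higher in both overexpressing arrays, with a log2 difference of 0.56 (SE 0.22, limma unadjusted p = 0.0352, adjusted p = 1.00). Of 8 ribosomal protein genes and homologs named outside the pattern, 6 were measured, of which FAU passed as higher and RPS27L as lower. Of all genes 1.04% passed as higher and 1.07% as lower. RPS27L had a log2 difference of -0.56 (limma unadjusted p = 0.0357), and neither gene passed after adjustment. The study also measured RPS27L by real-time PCR, among its downregulated genes, and reports that the result matched its array. RPL22L1, RPL26L1, RPL36AL and RPL7L1 did not pass, with log2 differences of -0.17 to -0.02.

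Of 75 mitochondrial ribosomal protein genes, which serve the ribosomes of that organelle, 0 passed as higher and 1 as lower in overexpressing cells, against 1.04% and 1.07% of all genes, with a median log2 difference of 0.01. That gene was MRPS18C, which had 10.83 and 10.44 in overexpressing cells, against 11.17 and 11.33 in control cells (log2 difference -0.61, limma unadjusted p = 0.038). MRPL4 came next with a log2 difference of 0.54. Of 36 measured ribosome biogenesis genes of 42 listed, 0 passed in either direction, with a median of -0.06, and the smallest p were those of NOL6 (log2 difference 0.64) and the kinase RIOK2 (-0.40). RNA polymerase I genes, which supply the rRNA, had 13 of 14 measured and 0 passing, with a median of 0.06. Other mRNAs with a TOP motif, mostly translation factors, had 12 of 18 measured and 0 passing, with a median of -0.02. Regulators of ribosomal protein supply, LARP1, MYC and MTOR among them, had 14 of 15 measured and 0 passing, and their median was 0.04. Of 5 listed p53 and ribosomal stress genes 4 were measured, with CDKN2A below the background level. Of these 0 passed, and their median was 0.07. The medians of these lists stand beside -0.00036 over all genes.

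The gap between the control arrays differed among these lists. Control array 2 minus control array 1 had a median of 0.07 over the mitochondrial ribosomal protein genes and 0.0056 over ribosome biogenesis genes. It was -0.03 over translation factors and other TOP mRNAs, -0.21 over RNA polymerase I genes and -0.27 over supply regulators. Over the 4 p53 and ribosomal stress genes it was -0.32, against 0.21 over the large and 0.19 over the small subunit genes. Over 512 ribosomal protein pseudogenes above the background level it was 0.24. These pseudogenes share sequence with the genes, so their values are no separate reading.

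**Figure D5:**
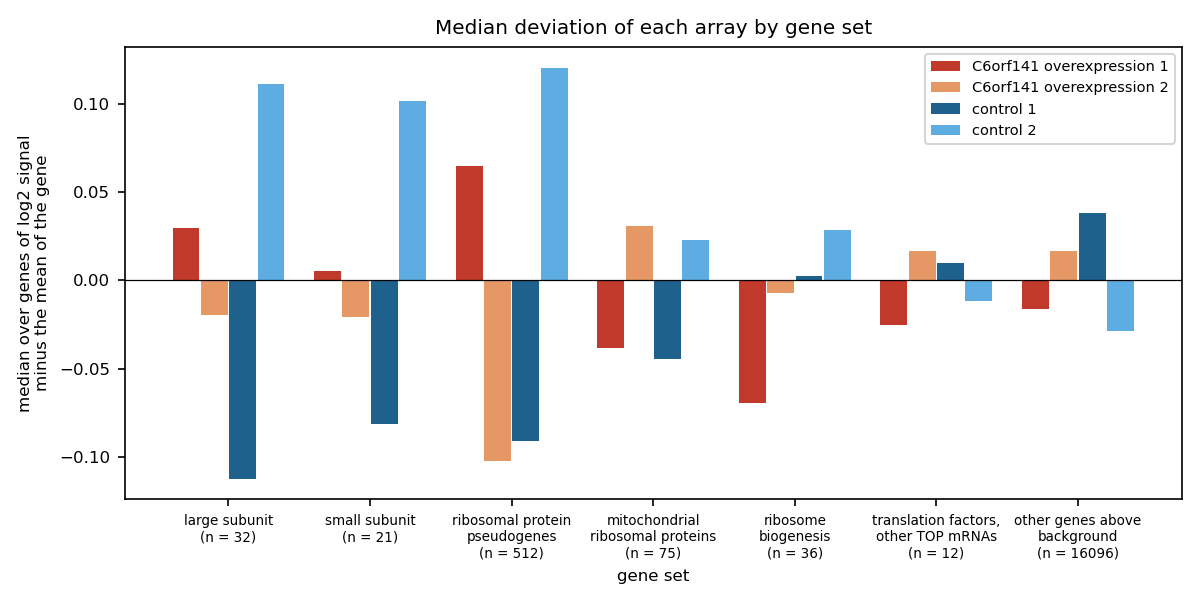
Median over the genes of a set (x axis) of the log2 signal minus the mean of the gene over the 4 arrays (y axis), for each array. In the large and small subunit genes and the pseudogenes control 2 is the highest bar. It is also the highest in ribosome biogenesis genes, at 0.029 against 0.0023 for control 1. In other genes above the background level control 2 is the lowest bar.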

How the data were processed

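RNA of 2 SAS samples with C6orf141 overexpression and 2 control samples was labelled with the WT PLUS reagent and hybridised to Clariom D arrays by the authors. They deposited 1 gene-level log2 value per row and array, which the labels credit to Expression Console and the methods compare in Partek at p below 0.05. How probes were summarised and normalized, and with which annotation and build, is not stated in the labels or methods, nor is how probes matching several copies of a gene were treated, which could change the levels. The deposited log2 values, which ranged from 1.62 to 19.3, were used without further normalization.

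Array control rows (2995 of 138745) were left out, and the remaining 135750 went into a two-sided limma fit (version 3.58.1 under R 4.3.3, threshold 0.05). Benjamini-Hochberg adjustment ran over 33458 genes, each by its row with the highest mean among rows with 1 symbol. Symbols came from the platform annotation, with 623 older ones updated through RefSeq. The test in Partek is not named, so Student's t-test was run as the methods' t-test. It called 654 genes higher and 710 lower, fewer than the study reports in each direction. The name therefore does not mean that the study's own test or gene list was reproduced. Alternatives were quantile normalization, array median centring, trend and robust settings, a filter at the background level, the mean of a gene's rows, a block for the replicate number, and omission of each array in turn. On simulated data with 200 changed genes, 4.89% of the unchanged genes passed the unadjusted threshold. The simulated noise was independent and had 1 constant variance for all rows, so a share near the threshold followed from the setting. It does not measure the error rate on these arrays, where 2.11% of all genes passed.

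Under the rule for named genes every member could be named, with values on all arrays for those past the unadjusted threshold, the 8 largest differences in each direction, RPS26, RPS6 and the P stalk, 5S, anaemia and paralog lists. Further members were named after their values were seen. The split into well represented and limited rows, and the bound of 13 on bright genes, were chosen after seeing the data. The genes and lists were chosen with earlier results of these data known. The number of arrays limits the precision.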

Additional observations from a re-analysis of the deposited data

How the results depend on the processing

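The call of 0 ribosomal protein genes in either direction held under quantile normalization, array median centring, trend and robust settings, the mean of rows, the filter at the background level and the replicate block. The methods' t-test called 3 lower. With 1 array left out the count of higher genes ranged from 0 to 1 (RPL4, 0.68, limma unadjusted p = 0.0496, without control replicate 2) and that of lower genes from 0 to 0. The median log2 difference ranged from -0.12 to 0.10 over the 53 genes, -0.13 to 0.13 over the large subunit and -0.12 to 0.075 over the small subunit, with the lowest values without control replicate 1 and the highest without control replicate 2. All genes higher numbered 654 by the t-test, 67 above the background level and 209 to 925 with 1 array left out. All genes lower numbered 710, 78 and 244 to 668.

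Deviations of same-numbered arrays had a correlation of -0.11 over all genes and -0.25 over the 53 genes. Over genes above the background level it was -0.27. Each group gives only the gap between its own arrays, so these values cannot show whether same-numbered arrays were paired. With the replicate block 299 genes were higher, 326 lower and 0 ribosomal protein genes either way. The cause of these shifts was not tested.

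Signs of small differences changed with the mean of rows (RPL12 0.017, RPL14 -0.029, RPL7A 0.053, RPS4X 0.022), quantile normalization (RPL35 -0.0036, RPL6 0.0093) and median centring (RPL6 0.0045). Leaving out 1 array changed the sign of 38 genes, with log2 differences of -0.037 to 0.25 for RPL10L, -0.00020 to 0.18 for RPL11, -0.14 to 0.092 for RPL12, -0.10 to 0.15 for RPL14, -0.12 to 0.20 for RPL18, -0.15 to 0.20 for RPL19, -0.21 to 0.25 for RPL22, -0.48 to 0.13 for RPL26, -0.51 to 0.33 for RPL29, -0.36 to 0.24 for RPL31, -0.26 to 0.31 for RPL34, -0.21 to 0.24 for RPL35, -0.49 to 0.49 for RPL36A, -0.26 to 0.24 for RPL39L, -0.31 to 0.68 for RPL4, -0.13 to 0.19 for RPL41, -0.26 to 0.35 for RPL5, -0.14 to 0.13 for RPL6, -0.019 to 0.034 for RPL7, -0.11 to 0.083 for RPL7A, -0.21 to 0.25 for RPS10, -0.13 to 0.22 for RPS12, -0.27 to 0.16 for RPS14, -0.030 to 0.012 for RPS15, -0.16 to 0.13 for RPS15A, -0.12 to 0.035 for RPS16, -0.039 to 0.084 for RPS18, -0.15 to 0.26 for RPS19, -0.11 to 0.083 for RPS21, -0.15 to 0.060 for RPS23, -0.17 to 0.075 for RPS24, -0.15 to 0.0029 for RPS25, -0.16 to 0.055 for RPS26, -0.33 to 0.27 for RPS27, -0.20 to 0.56 for RPS28, -0.34 to 0.24 for RPS3A, -0.15 to 0.037 for RPS4X and -0.0062 to 0.092 for RPS7. The other 15 kept their sign under these 4 settings. The 4 arrays, not a read depth, limit what can be seen.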

Other observations

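The table also held 955 ribosomal protein pseudogenes, which are copies of ribosomal protein mRNAs inserted in the genome. Of these 7 passed an unadjusted p of 0.05 in limma as higher and 9 as lower in overexpressing cells, against 1.04% and 1.07% of all genes, and their median log2 difference was -0.03. Among the 512 above the background level, 0 passed as higher and 4 as lower, against 0.898% of all genes above that level in either direction. Control array 2 was above control array 1 in 74.0% of the 512. The 2 overexpressing arrays also differed over them, with a median of -0.18 (array 2 minus array 1), against -0.04 over the 53 ribosomal protein genes. A share of the signal of each set may come from the same transcripts, which was not tested.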
